A study of Mus musculus with 15 samples.

Results

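The muscle ankyrin repeat proteins Ankrd1, Ankrd2 and Ankrd23, with the LIM domain protein Csrp3, were followed at 3 ages in the gastrocnemius of male C57BL/6 mice, a calf muscle built mostly of fast fibres. The 4 genes were taken by their symbols in the array's annotation, which gave 7 probes, out of 16593 named genes and 25697 probes. They were chosen by the measured Ankrd1 intensities, whose higher level in old than in young muscle was already known, so the values of all 4 genes in that comparison, and those of Ankrd1 in every comparison, are a description with no test. RNA came from untreated wild-type C57BL/6J males of 1 strain and 1 sex, aged 5 months (young), 17 months (middle-aged) or 28 months (old) with 5 animals per age, and each mouse was measured on 1 Illumina MouseRef-8 bead array. All 7 probes were detected on all 15 arrays, that is with a detection p-value below 0.05 against the array's negative controls.

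The muscle ankyrin repeat proteins sit in the sarcomere on the elastic spring region of titin, the giant protein that runs from the Z-disc to the middle of the sarcomere and carries passive tension. They can also enter the nucleus, where they bind transcription factors, and for this reason they are described as links between stretch of the sarcomere and gene expression. Ankrd1, also called CARP, is abundant in heart muscle, is low in resting skeletal muscle and is induced by injury, stretch, overload and loss of the nerve. Ankrd2, also called Arpp, is preferentially found in slow fibres, and Ankrd23, also called DARP, is a family member of skeletal muscle and heart that is linked to energy metabolism. Csrp3, the muscle LIM protein, is a Z-disc protein that is part of the proposed stretch sensor of striated muscle and acts as a cofactor of myogenic transcription factors.

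The promoters are shown because the 4 genes differed in how they followed age, while M-CAT elements, the binding sites of TEAD factors, are known from muscle genes that answer to load. RefSeq sequences (GRCm38.p6) were matched by symbol for 4 of 4 genes. Each run below is 300 bases long, 250 before and 50 after the annotated start, 5′ to 3′ on the strand of the gene, and for the genes with more than 1 annotated start the start lying farthest 5′ was used. The windows are chr19:36119795-36120094 on the minus strand for Ankrd1, chr19:42035777-42036076 on the plus strand for Ankrd2, chr1:36536507-36536806 on the minus strand for Ankrd23 and chr7:48848002-48848301 on the minus strand for Csrp3. Capitals mark the M-CAT element CATTCC, which reads GGAATG where it lies on the opposite strand.
Ankrd1: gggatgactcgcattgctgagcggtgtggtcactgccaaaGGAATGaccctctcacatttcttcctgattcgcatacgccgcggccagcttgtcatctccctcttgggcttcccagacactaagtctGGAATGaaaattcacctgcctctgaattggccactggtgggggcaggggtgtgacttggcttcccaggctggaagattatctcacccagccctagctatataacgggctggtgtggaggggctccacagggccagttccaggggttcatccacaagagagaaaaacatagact
Ankrd2: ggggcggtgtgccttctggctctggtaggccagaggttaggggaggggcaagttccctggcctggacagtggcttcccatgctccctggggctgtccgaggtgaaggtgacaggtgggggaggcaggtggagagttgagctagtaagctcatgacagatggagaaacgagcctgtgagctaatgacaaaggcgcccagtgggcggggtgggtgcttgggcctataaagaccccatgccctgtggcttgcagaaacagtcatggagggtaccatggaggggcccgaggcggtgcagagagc
Ankrd23: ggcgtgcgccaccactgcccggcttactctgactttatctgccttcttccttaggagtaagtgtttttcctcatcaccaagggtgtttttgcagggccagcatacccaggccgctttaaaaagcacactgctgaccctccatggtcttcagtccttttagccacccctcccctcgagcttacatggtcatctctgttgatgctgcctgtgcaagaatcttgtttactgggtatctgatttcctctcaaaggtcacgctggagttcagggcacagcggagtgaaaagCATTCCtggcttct
Csrp3: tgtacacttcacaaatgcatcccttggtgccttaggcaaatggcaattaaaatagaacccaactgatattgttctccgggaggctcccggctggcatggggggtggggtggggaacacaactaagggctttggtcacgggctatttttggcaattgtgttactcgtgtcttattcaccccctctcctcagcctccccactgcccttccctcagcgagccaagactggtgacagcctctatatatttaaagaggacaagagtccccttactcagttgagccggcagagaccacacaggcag

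The Ankrd1 window held 2 M-CAT matches, both on the opposite strand, which begin 210 and 123 bases before the start. The Ankrd23 window held 1 match, which lies 36 bases after the start, and the Ankrd2 and Csrp3 windows held 0. An M-CAT match on either strand was found in 14.7% of 32851 mouse promoter windows of the same length. The E-box CANNTG, the site of myogenic helix-loop-helix factors, which reads the same on both strands, occurred 1 time in the Ankrd1 window, 3 times in that of Ankrd2, 0 times in that of Ankrd23 and 5 times in that of Csrp3, and 72.3% of all windows held at least 1. The window of the other annotated Ankrd23 start, not printed, held 1 M-CAT match, 120 bases before that start, and 2 E-boxes, and that of the other Csrp3 start held 0 and 4. A TATA box written TATAAA was found in the Ankrd2 window alone among these 4, 29 bases before the start, and in 13.6% of all windows on either strand. Only this spelling was searched, so similar stretches, such as tatataa in the Ankrd1 window, were not counted. The CArG box, the site of SRF, and the MEF2 site, searched by their common consensus on both strands, had 0 matches in these windows and were found in 1.63% and 3.19% of all windows. The motifs searched do not overlap in these windows. A match is a stretch of letters and no measured site, and these arrays carry no measurement of factor binding.

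Before normalisation the arrays had a median raw intensity of 74.7 to 93.8, near background, a mean of 328 to 621 and 11534 to 12593 probes above background per array. The tissue fitted its label: the probes of 13 fast fibre and muscle genes, Acta1 and Ckm among them, were detected on all 15 arrays, and the lowest of them, Myh1, lay at the 91.7th percentile of all probes or above on every array. Levels below are log2 intensities after background correction and quantile normalisation, and they can be compared between arrays for 1 probe but not between probes. The limma fit took 1 spread per feature from all 3 ages. The SE, interval and p of middle-aged against young therefore also hold the spread of the old arrays. A feature was called where its adjusted p was under 0.05 (limma, two-sided, Benjamini-Hochberg over 9470 features of a comparison). Of these features, 3.31% were called in old against young muscle (1.72% higher, 1.58% lower), 0.317% between old and middle-aged (0.264% higher and 0.0528% lower) and 0.0106% between middle-aged and young, the last being 1 feature. Old replicate 5 stood apart in the slow fibre genes: their mean log2 level was 8.28 there, against 10.24 to 10.88 on the other 4 old arrays. The differences and correlations of the 4 genes that this array moves are given with and without it. In whole muscle, fewer cells of a type and less RNA per cell cannot be told apart.

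Ankrd1 was higher at each later age. By the brighter of its probes (ILMN_2950286), the 5 young arrays had log2 levels of 8.05, 7.53, 7.64, 7.77 and 7.89. The 5 middle-aged arrays had 9.0, 8.65, 9.31, 8.77 and 9.61. The 5 old arrays had 10.43, 10.73, 12.07, 10.36 and 9.17. Every middle-aged and every old array lay above every young array, while the lowest old array, replicate 5, lay below middle-aged replicates 3 and 5, so the later groups overlapped. The spread widened with the level, from an SD of 0.21 in young through 0.39 in middle-aged to 1.04 in old muscle (n = 5 each). On the raw scale the signal ran from 208 to 374.8 in young, from 452.6 to 711.2 in middle-aged and from 767.8 to 3613.6 in old muscle.

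The mean Ankrd1 level was 2.45-fold higher in middle-aged than in young muscle (log2 1.29 ± 0.35, SE), 2.8-fold higher in old than in middle-aged muscle (1.49 ± 0.35) and 6.85-fold higher in old than in young muscle (2.78 ± 0.35). These differences were part of what chose the gene, and no p is given for them. They share 1 SE, which comes from all 3 ages, although the SD ran from 0.21 in young to 1.04 in old muscle. Old replicates 3 and 5, the ends of the old group, move the values most: the old against young difference was 2.40 without old replicate 3 and 3.12 without old replicate 5, and the old against middle-aged difference 1.11 and 1.83. The second probe (ILMN_2625451) followed the same course, with means of 6.65 ± 0.12, 7.76 ± 0.62 and 9.46 ± 1.13 (SD, n = 5) at the 3 ages and a difference of 2.81 ± 0.40 between old and young. Across the 15 arrays the probes correlated at r = 0.991, and both read the RNA of the same mice.

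**Figure D1:**
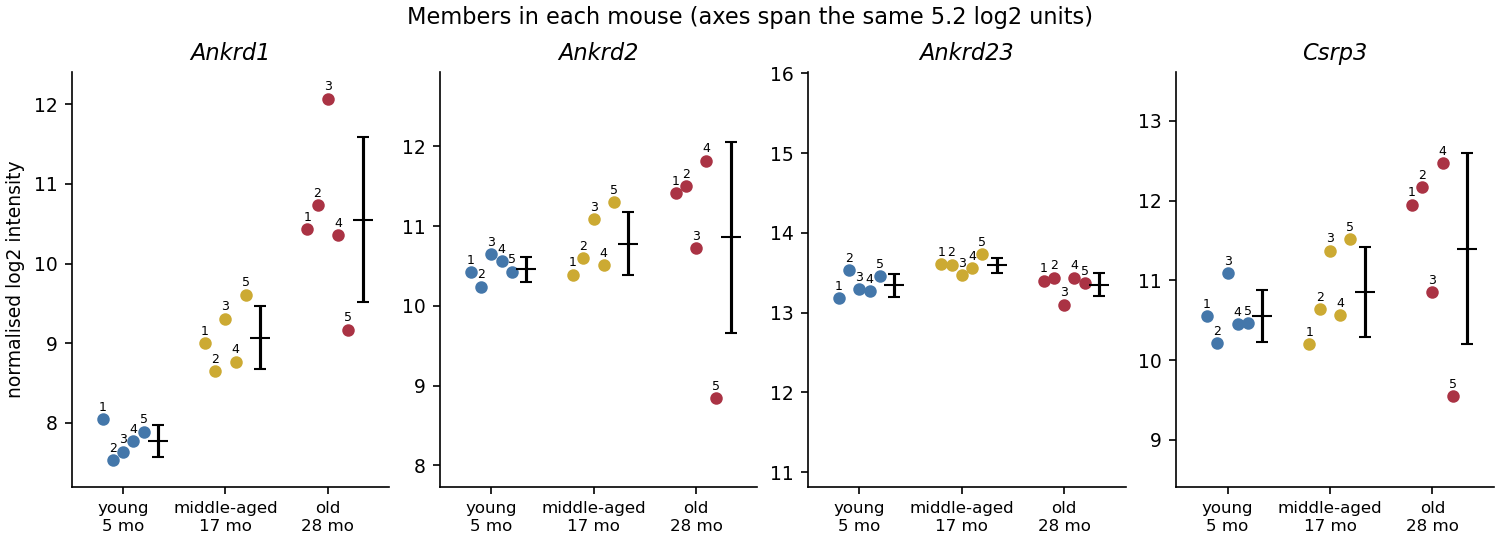
Normalised log2 intensity (vertical axis) of Ankrd1, Ankrd2, Ankrd23 and Csrp3 on each of the 15 arrays, by age group, with 1 point per mouse and a line at the group mean with its SD. The Ankrd1 points of 17 and 28 months all lie above those of 5 months, the old points of Ankrd2 and Csrp3 spread from 8.84 to 11.82 and from 9.55 to 12.47, and those of Ankrd23 stay between 13.10 and 13.73 at all ages.

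Ankrd2 did not separate the ages. The young arrays had log2 levels of 10.42, 10.24, 10.65, 10.56 and 10.43, and the middle-aged arrays 10.39, 10.60, 11.09, 10.51 and 11.30. The old arrays had 11.41, 11.50, 10.72, 11.82 and 8.84. Old replicates 1, 2 and 4 were the highest of all 15 arrays, old replicate 3 lay among the middle-aged arrays, and old replicate 5 was the lowest of all. The SD was 0.16 in young, 0.39 in middle-aged and 1.19 in old muscle (n = 5 each), and all groups overlapped. The old mean exceeded the young mean by 0.40 ± 0.38 (SE), which is given as a description. Between old and middle-aged muscle the difference was 0.08 ± 0.38 (95% interval -0.73 to 0.89, adjusted p = 0.953 by limma), and between middle-aged and young muscle 0.32 (95% interval -0.49 to 1.13, adjusted p = 1 by limma). Without old replicate 5 the old mean lay 0.90 above the young and 0.59 above the middle-aged mean (adjusted p = 0.118 by limma).

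Csrp3 was ordered almost like Ankrd2. The young arrays had log2 levels of 10.55, 10.21, 11.09, 10.45 and 10.46, the middle-aged arrays 10.20, 10.64, 11.37, 10.56 and 11.52, and the old arrays 11.95, 12.17, 10.85, 12.47 and 9.55. Again old replicates 1, 2 and 4 were the highest of all arrays and old replicate 5 the lowest. The group means were 10.55 ± 0.32, 10.86 ± 0.56 and 11.40 ± 1.20 (SD, n = 5), a difference of 0.85 ± 0.41 (SE), or 1.8-fold, between old and young muscle, given with no test. The later step was 0.54 ± 0.41 (95% interval -0.33 to 1.41, adjusted p = 0.611 by limma) and the earlier step 0.30 (95% interval -0.56 to 1.17, adjusted p = 1 by limma), and neither was called. Without old replicate 5 the old mean was 1.31 above the young and 1.0 above the middle-aged mean (adjusted p = 0.069 by limma). The other probes of Csrp3 (ILMN_2789650 and ILMN_2789651) gave old against young differences of 0.95 ± 0.43 and 0.87 ± 0.44, and each correlated with the brightest at r = 0.988.

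Slow fibre genes were read beside both. The slow fibre list, which does not hold Ankrd2 or Csrp3, had 11 of 12 genes measured, with Myh7b left out for want of a probe. Its mean log2 level was 9.24 to 10.06 on the young arrays, 9.58 to 10.20 on the middle-aged arrays, 10.24 to 10.88 on old replicates 1 to 4 and 8.28 on old replicate 5. Its summed level was 32621 to 60764 in young, 45539 to 64659 in middle-aged and 18420 to 94572 in old muscle, and none of its 11 genes was called in any of the 3 comparisons (1 was higher between old and young at an unadjusted p under 0.05, and 0 in either step). Most estimates were nevertheless higher at the later age. They were 10 of 11 between old and young (median 0.63), 8 of 11 in the later step (0.19) and 11 of 11 in the earlier step (0.39). Old replicates 1, 2 and 4 had the highest and old replicate 5 the lowest slow fibre level of all arrays, as they had for Ankrd2 and Csrp3. Among the young arrays the order was another: young replicate 3, the highest of them in Ankrd2 and Csrp3, had a slow fibre level of 9.46, under that of young replicate 4 at 10.06. The part of slow fibre content in the Ankrd2 and Csrp3 values was not tested.

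**Figure D2:**
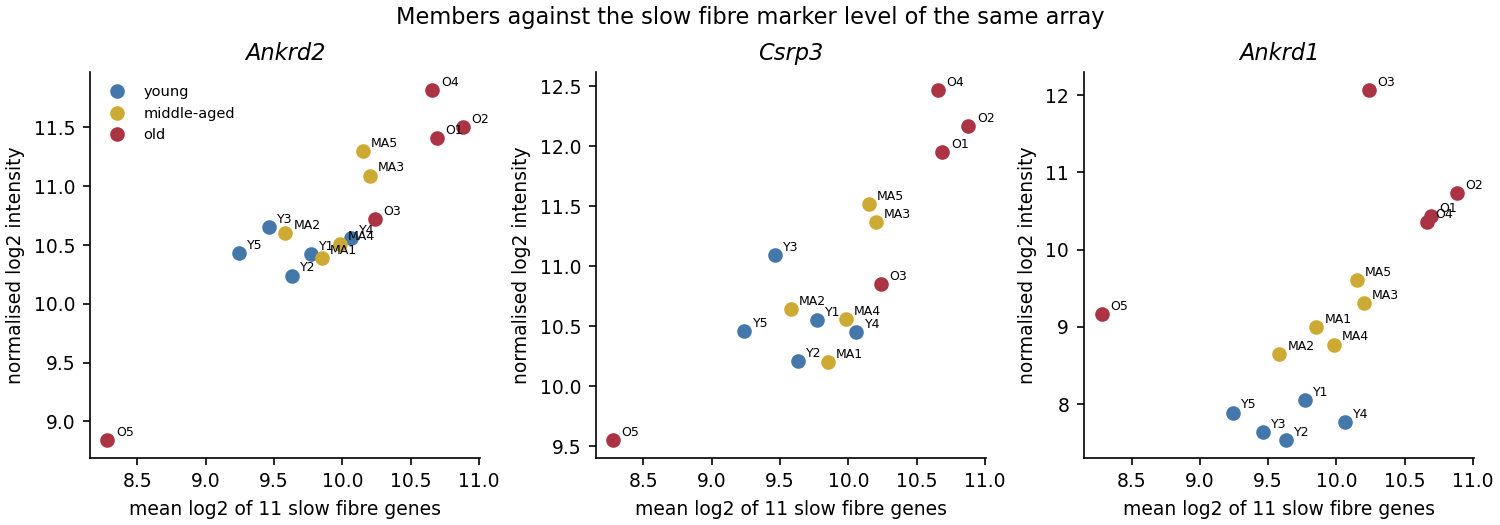
Log2 level of Ankrd2, Csrp3 and Ankrd1 (vertical axes) against the mean log2 level of 11 slow fibre genes (horizontal axis), with 1 point per array coloured by age. Old replicate 5, at 8.28 on the horizontal axis, is the lowest point for Ankrd2 and Csrp3, while for Ankrd1 it lies within the range of the middle-aged arrays.

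Ankrd23 was the steadiest of the 4. The young arrays had log2 levels of 13.18, 13.53, 13.29, 13.27 and 13.46. The middle-aged arrays had 13.61, 13.60, 13.47, 13.56 and 13.73, and the old arrays 13.40, 13.44, 13.10, 13.44 and 13.37. After quantile normalisation the old and middle-aged groups did not overlap, the highest old arrays at 13.44 lying just under the lowest middle-aged array at 13.47. Young muscle overlapped with both. By the deposited Z score the old and middle-aged groups did overlap, at 3.81 to 4.38 and 3.89 to 4.43. The difference between them was -0.10 in those units (adjusted p = 0.789 by limma). The old mean was 1.18-fold lower than the middle-aged mean (log2 -0.24 ± 0.10, 95% interval -0.46 to -0.03, adjusted p = 0.349 by limma), and the middle-aged mean 1.19-fold higher than the young mean (0.25 ± 0.10, 95% interval 0.03 to 0.46, adjusted p = 0.881 by limma). Neither difference was called. Between old and young muscle the difference was 0.00 ± 0.10, and its sign depended on the scaling, at -0.08 after median scaling and 0.07 in units of the deposited Z score.

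**Figure D3:**
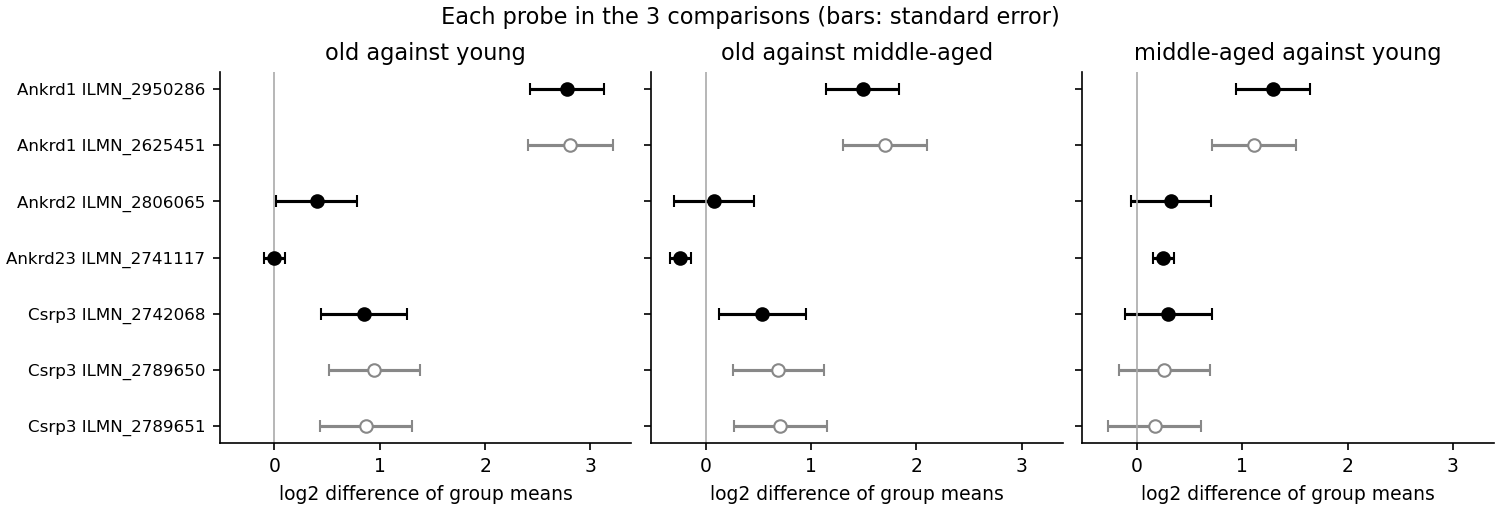
Differences of group means on the log2 scale (horizontal axis) for every probe of the 4 genes in the 3 comparisons, with bars of 1 standard error. Black points are the probe that stands for the gene and open grey points the other probes, and only Ankrd1 lies above 1 in all 3 comparisons, by both of its probes.

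Of the 3 genes with a test, 0 of 3 were called by limma in either step, beside 0.317% and 0.0106% of all features. At an unadjusted p under 0.05, 1 of 3 passed in each step, Ankrd23 both times, beside 12.2% and 5.07% of all features, and the methods' t-test called 0 of 3 after adjustment in each, beside 0.0211% and 0.0106%. The steps share the middle-aged arrays with each other, and each shares old or young arrays with the comparison by which the genes were chosen. Groups that did not overlap were seen for 1 of 4 genes in each comparison. Ankrd1 was higher with groups apart in old than in young muscle, beside 2.15% of all features, a comparison that chose it. It was also higher with groups apart in middle-aged than in young muscle, beside 1.56% of all features, and Ankrd23 was lower with groups apart in old than in middle-aged muscle, beside 0.813%. By the deposited Z score these Ankrd23 groups overlapped.

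Mice of 1 age also differ among themselves, and these deviations from the group mean do not use the differences by which the genes were chosen. Over the 15 arrays, Ankrd2 and Csrp3 deviated together (r = 0.96, p = 1e-05, the smallest that 100000 permutations within ages can give, adjusted p = 6e-05 over 6 pairs; rho = 0.95, p = 4e-05, adjusted p = 0.00024). Without old replicates 4 and 5, the arrays farthest from the median, r was 0.94, and leaving out each array in turn gave 0.96 to 0.98. The deviations of Ankrd1 followed those of Ankrd2 and Csrp3 less closely, at r = 0.52 and 0.37 (permutation test, adjusted p = 0.628 for each; rho = 0.41 and 0.31). Here single old arrays set the value. Without old replicate 3, the mouse with the most Ankrd1, r was 0.86 with Ankrd2 and 0.84 with Csrp3 (permutation test, adjusted p = 0.0416 for each), and without old replicate 5 it was -0.26 and -0.31 (permutation test, adjusted p = 0.52 for each). In old replicate 3 Ankrd1 stood at 12.07, the highest of all arrays, with Ankrd2 at 10.72 and Csrp3 at 10.85.

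Ankrd23 deviated with none of the others. Its r was -0.44 with Ankrd1 (permutation test, adjusted p = 0.628; rho = -0.26), 0.11 with Ankrd2 and 0.17 with Csrp3 (permutation test, adjusted p = 0.722 for each). The value with Ankrd1 turned to 0.07 without old replicate 3. Of the 6 pairs, only Ankrd2 with Csrp3 passed an adjusted p under 0.05 over all 15 arrays.

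**Figure D4:**
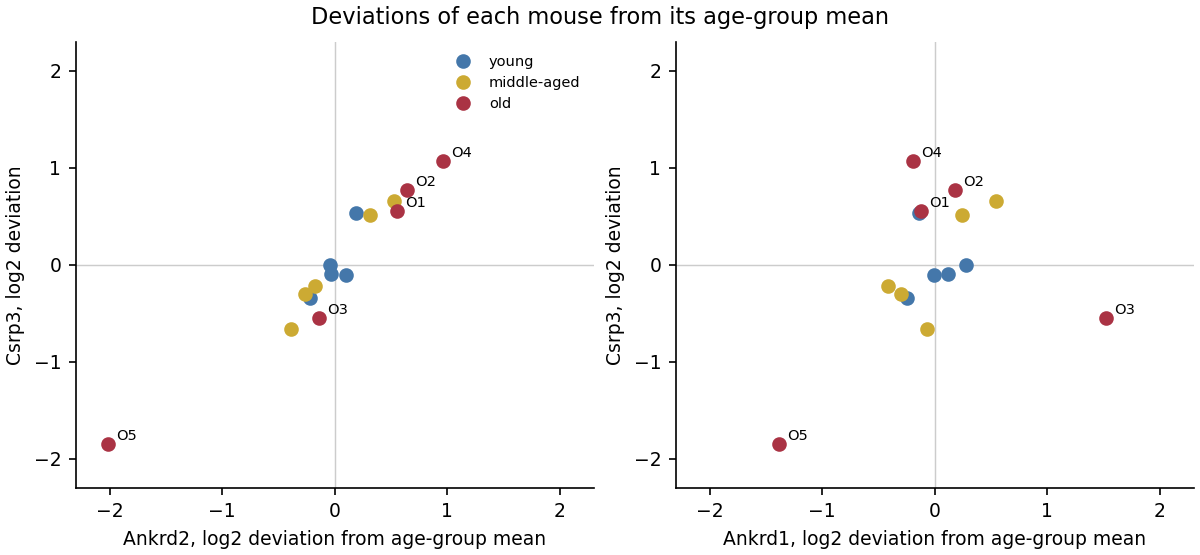
Deviations from the age group mean on the log2 scale, Csrp3 on the vertical axis against Ankrd2 (left) and Ankrd1 (right), with 1 point per array coloured by age. The Ankrd2 points follow a line (r = 0.96), while in the Ankrd1 panel old replicates 3 and 5 lie at opposite ends and r is 0.37.

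The features most like each gene over the 15 arrays were found by Pearson r, which is a description here, since the arrays share age. Those most like Ankrd2 were Myoz2, a calsarcin that anchors calcineurin at the Z-disc of slow fibres (r = 0.97), the mitochondrial isocitrate dehydrogenase Idh2 (0.94), Coq8a of coenzyme Q synthesis (0.94), Csrp3 (0.93) and Arpp21 (0.93). For Csrp3 they were the Hsp70 family member Hspa2 (0.95), Ankrd2 (0.93), Myoz2 (0.91), the regulatory light chain gene Myl12b (0.90) and Myl2 (0.88), the regulatory light chain of slow fibres. Within ages these values were 0.93 to 0.98 for Ankrd2 and 0.87 to 0.96 for Csrp3. Without old replicate 5, Ankrd2 correlated at 0.98 with Csrp3, 0.94 with Myoz2, 0.89 with Coq8a, 0.88 with Idh2 and 0.84 with Arpp21, so that Csrp3 was the closest of these 5, and the values for Csrp3 with its 5 ran from 0.84 with Myl2 to 0.98 with Ankrd2. For Ankrd1 they were an unnamed probe, ILMN_2950622 (0.94), then the adhesion molecule Ncam1, which spreads over denervated fibres, the atypical protein kinase C gene Prkcz, Fam214a and Amy2a5 (0.92 each), and within ages these values were 0.63 to 0.84. The Amy2a5 signal is uncertain, since the mouse amylase genes are near-identical copies. Over all 15 arrays Ankrd23 had no partner as close, with the small GTPase Arf1 (0.82), the DNA repair gene Mgmt (0.79), Tsc22d4 (0.78), Tlnrd1 (0.77) and the kinase Camk1 (0.76). Within ages the Ankrd23 values were 0.67 to 0.91. The highest of them, Arf1 at 0.91, lay above the 0.63 to 0.84 of the Ankrd1 partners. No feature was among the 5 most like Ankrd1 and also among those most like Ankrd2, Ankrd23 or Csrp3.

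Lists of genes around the 4 proteins were compared with the share called among all features. The lists were chosen with earlier results of these data known, so their shares are descriptions and no independent evidence. Among the partners of titin and the Z-disc, 26 of 33 genes were measured, and 2 were called higher and 1 lower between old and young muscle, or 11.5% beside 3.31% of all features. At an unadjusted p under 0.05 there were 6 higher and 2 lower, where 18.9% of all features passed. The methods' t-test called 1 of 26 after adjustment. Palld, the actin bundler palladin, fell by 0.75 on the log2 scale (1.68-fold lower, SE 0.12, adjusted p = 0.00235 by limma, groups apart). Xirp1, the actin-binding protein Xin, was 1.41-fold higher (0.49 ± 0.13, adjusted p = 0.0445 by limma), and Pdlim3, a LIM protein bound to alpha-actinin, 1.42-fold higher (0.51 ± 0.13, adjusted p = 0.0464 by limma). The Palld call held without any 1 array (adjusted p of 0.000456 to 0.0107 by limma), but was lost with median scaling (adjusted p = 0.0825), as were those of Xirp1 (0.417) and Pdlim3 (0.399). The Xirp1 call was lost without 10 of the 15 arrays left out in turn, with adjusted p up to 0.0945, and the Pdlim3 call without 13, with adjusted p up to 0.115. The other probe of Pdlim3 gave 0.75 (adjusted p = 0.00599 by limma, with every probe kept). The median over the list was 0.11, beside -0.02 over all features. In the later step 0 of 26 were called (1 higher and 1 lower at an unadjusted p under 0.05), and in the earlier step 0 of 26 (3 higher and 1 lower).

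None of the measured relatives of Csrp3 was called. Of 21 other LIM-only and CRP family genes, 14 were measured and 0 were called by limma in any comparison, and at an unadjusted p under 0.05 there were 1 higher and 1 lower between old and young, none in the later step and 1 higher in the earlier step. The list's median between old and young was -0.16. Its summed level, in which the brightest genes weigh most, was 23020 to 27098 in young and 21697 to 36943 in middle-aged muscle, 36633 to 41453 on old replicates 1 to 4 and 15455 on old replicate 5. The highest young array (replicate 3) and the highest middle-aged arrays (replicates 5 and 3) in this sum were also those highest in Csrp3. Among the old arrays replicate 5 was the lowest in both, but the sum was highest in replicate 2, at 41453, and Csrp3 in replicate 4. By the mean log2 level of the list the highest young array was replicate 4, at 8.47, and old replicate 3 was the lowest of all arrays, at 8.02. The lowest p-values between old and young were those of Lmcd1, a LIM protein that represses GATA factors (0.69 ± 0.22, adjusted p = 0.092 by limma), and Fhl3 (-0.53 ± 0.21, adjusted p = 0.169 by limma).

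The factors that read the promoter elements were measured in part. Of the YAP and TEAD pathway 17 of 27 genes were measured, Tead1 being detected on no array, and 0 were called in any comparison, with a median of -0.03 between old and young and 0 at an unadjusted p under 0.05. Of SRF, its MRTF cofactors and stretch-responsive early genes 18 of 31 were measured and 0 were called in any comparison, with a median of -0.10 between old and young, where 1 was higher and 4 lower at an unadjusted p under 0.05. The early gene Fosb had the lowest p (adjusted p = 0.0709 by limma), and since it was above background on 5 of 5 young but 1 of 5 old arrays, no size is given. Young replicate 2 stood apart in this list, with a mean log2 level of 8.56 against 7.56 to 8.11 on the other young arrays. Srf itself was 0.41 lower in old than in middle-aged muscle (SE 0.18, adjusted p = 0.384 by limma).

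Ankrd2 is known to bind p53 and NF-kB, and Ankrd1 to bind p53 and YB-1 (Ybx1). The list of these factors and their targets had 12 of 17 genes measured, with Trp53, Nfkb1 and Ybx1 among those without a probe. Between old and young muscle 2 of 12, or 16.7%, were called higher, beside 1.72% of all features, and 0 lower. This list too was chosen with earlier results of these data known. The methods' t-test called 0 of 12 after adjustment. Cdkn1a, the p21 inhibitor of the cell cycle, was 2.6-fold higher in old than in young muscle (1.38 ± 0.20, adjusted p = 0.000784 by limma) and 2.49-fold higher than in middle-aged muscle (1.32 ± 0.20, adjusted p = 0.00357 by limma), with groups apart in both. Bbc3, the death-promoting Puma, was 1.7-fold higher in old than in young muscle (0.77 ± 0.18, adjusted p = 0.0225 by limma), but its other probe gave -0.11, and the call was lost with median scaling (0.0656) and without young replicate 3 or 5 or old replicate 1 or 4 (up to 0.0691). Between middle-aged and young muscle 0 of 12 were called, beside 0.0106% of all features (0 at an unadjusted p under 0.05), and the median was 0.06. A link of Ankrd1 or Ankrd2 with the values of these genes was not tested.

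Of the 6 pathway lists, the denervation response had the highest share called. Of 17 genes 13 were measured, and 8, or 61.5%, rose and 0 fell between old and young muscle, where 1.72% of all features were called higher, with a median of 1.19 beside -0.02. The list was written with the rise of several of its genes known, so this count is no independent evidence of its direction. After adjustment the methods' t-test called 1 of 13 in this comparison and 1 of 13 between old and middle-aged muscle. Sln, the sarcolipin that restrains the calcium pump, rose 16.9-fold (4.08 ± 0.47, adjusted p = 6.97e-05 by limma), and Rrad, an RGK family GTPase that damps calcium channels, 4.48-fold (2.16 ± 0.21, adjusted p = 2.44e-05 by limma). Gadd45a, a stress gene of muscle atrophy, rose 2.42-fold, and Chrnb1, a subunit of the acetylcholine receptor, 1.98-fold. Between old and middle-aged muscle 7 of 13, or 53.8%, rose beside 0.264% of all features and 0 fell, with a median of 1.16. Among those that rose was the perinatal myosin Myh8 (3.95-fold, 1.98 ± 0.32, adjusted p = 0.00547 by limma), whose groups overlapped. The other probe of Myh8 gave 1.12 (adjusted p = 0.0418 by limma, with every probe kept).

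The denervation genes and Ankrd1 are set side by side here over the earlier step as well. Between middle-aged and young muscle 0 of 13 denervation genes were called (0 at an unadjusted p under 0.05), and their median was 0.03, and Ankrd1 was 1.29 ± 0.35 higher, with groups apart. The difference between these values was not tested, and both the gene and the list were chosen with results of these arrays known. The mean log2 level of the list was 7.45 to 7.89 on the young, 7.61 to 7.70 on the middle-aged and 8.42 to 9.53 on the old arrays. Within the old group the ends of this mean were those of Ankrd1, with old replicate 3 the highest at 9.53 and old replicate 5 the lowest at 8.42. By the summed level of the list the ends were others, with old replicate 4 the highest at 18899 and old replicate 2 the lowest at 15294.

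**Figure D5:**
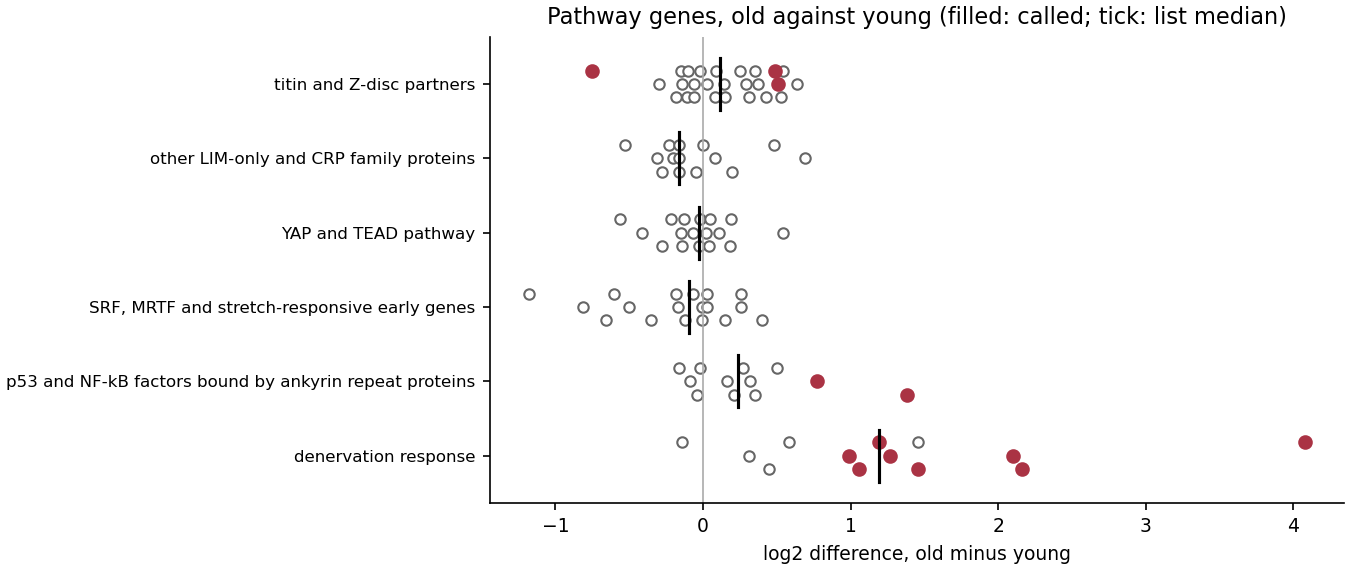
Old minus young difference on the log2 scale (horizontal axis) for each measured gene of the 6 pathway lists, with filled points for called genes, open points for the others and a tick at each list's median. The denervation genes reach 4.08 with a median of 1.19, while the medians of the other lists lie between -0.16 and 0.24.

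Markers of other cells that a muscle sample could hold were read beside Ankrd1. Of 12 macrophage markers 9 were measured, Itgam being detected on no array, and 5 of 9, or 55.6%, were called higher between old and young muscle by limma, beside 1.72% of all features, and 1 of 9 by the methods' t-test after adjustment. Their summed level was 1079 to 1812 in young, 1423 to 2407 in middle-aged and 2274 to 4132 in old muscle, and old replicate 3, the mouse with the most Ankrd1, had the lowest of the old sums, at 2274. Of 10 heart muscle markers 3 were measured, with a summed level of 2409 to 4596 in young, 2022 to 2358 in middle-aged and 1743 to 3295 in old muscle, and the heart genes Nppa, Myl7, Tnni3 and Tbx5 were detected on no array. Of the fast fibre, smooth muscle, endothelial and satellite cell markers, 11 of 12, 7 of 9, 8 of 10 and 4 of 8 were measured and 0 were called between old and young. Of the fibroblast markers, 10 of 10 were measured and 3 were called lower by limma, beside 1.58% of all features, and 0 by the methods' t-test after adjustment, with a summed level of 12769 to 17459 in young and 9529 to 15291 in old muscle. The part of the macrophage and fibroblast markers in the values of the 4 genes was not tested.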

How the data were processed

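Total RNA of the gastrocnemius of 15 male mice was hybridised to Illumina MouseRef-8 arrays, 1 per mouse. The authors deposited raw intensities read with GenomeStudio 2011.1, neither background-subtracted nor normalised, with a detection p-value for each intensity. They also deposited a score, the Z score of the natural log intensity, which was recomputed within 0.000924 and used as an alternative. Background correction and quantile normalisation on the log2 scale used the neqc function (offset 16; limma 3.58.1, R 4.3.3). Probes detected (p under 0.05) on 5 or more of the 15 arrays were kept, and the brightest stood for its gene, which left 9470 features from 12552 probes. Of 25697 probes 23978 had 1 gene symbol and 1719 none. The fit used 1 mean per age, lmFit and eBayes with an intensity trend, with Benjamini-Hochberg adjustment over all features of a comparison, and was tested on simulated data. Deviations from age means were correlated and permuted within ages (100000 resamples, two-sided). Values are limited by the number of arrays, 5 per age.

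The members and lists were chosen with earlier results of these data known. The genes named were the members with every probe, for each member the 5 features of highest Pearson r, and for each pathway list and comparison up to 4 called genes by lowest p, or up to 2 where none was called, of which the text gives a selection. Alternatives were no background correction, median scaling, the deposited scores, other detection filters, every probe kept, a block on replicate number, array weights, the methods' t-test, and leaving out arrays. The t-test is Student's, with the spread pooled over the groups compared, on the normalised log2 levels. It leaves out the cut-offs on Z ratio and average intensity in the study's methods. Its counts are therefore not those of the authors' own rule.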

Additional observations from a re-analysis of the deposited data

Results flagged for a closer look

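Ankrd23, by its probe ILMN_2741117, was lowest within the old group in old replicate 3, at a log2 level of 13.1, while the other 4 old arrays lay between 13.37 and 13.44. The gap to the nearest array was larger than Dixon's 95% limit for 5 samples. Of 21 groups of member probes looked at in this way 1 stood out, and chance marks about 1 in 20. The same array had the highest Ankrd1 level of all, 12.07.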

How the results depend on the processing

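The differences of the 4 genes kept their direction under every alternative, except for Ankrd23 between old and young, which lies at 0.00, and Ankrd2 between old and middle-aged. The latter, 0.08 over all arrays, ran from -0.16 to 0.59 as arrays were left out in turn and was -0.02, -0.06, -0.08 and -0.16 without middle-aged replicate 1 and old replicates 1, 2 and 4. For the other genes leaving out 1 array gave 2.40 to 3.12 (Ankrd1), 0.16 to 0.90 (Ankrd2), -0.04 to 0.07 (Ankrd23) and 0.58 to 1.31 (Csrp3) between old and young, 1.11 to 1.83 (Ankrd1), -0.27 to -0.18 (Ankrd23) and 0.27 to 1.0 (Csrp3) between old and middle-aged, and 1.16 to 1.39 (Ankrd1), 0.19 to 0.42 (Ankrd2), 0.21 to 0.29 (Ankrd23) and 0.14 to 0.47 (Csrp3) between middle-aged and young. No member with a test was called under any alternative fit. The co-variation of Ankrd2 with Csrp3 stayed called throughout. That of Ankrd1 ran from -0.26 to 0.86 with Ankrd2, from -0.31 to 0.84 with Csrp3 and from -0.59 to 0.07 with Ankrd23, was 0.87 with Ankrd2 without old replicate 3 and middle-aged replicate 5, and 0.02 with Ankrd23 on the deposited scores. That of Ankrd23 ran from 0.02 to 0.37 with Ankrd2 and from 0.04 to 0.33 with Csrp3, and was -0.09 with Csrp3 without the same pair of arrays.

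The counts over all features moved more. Between old and young muscle 313 features were called, against 136 with median scaling (86 higher and 50 lower, against 163 and 150), 870 with array weights, 584 without that pair of arrays, and 1531 by the methods' t-test at its unadjusted threshold or 25 after Benjamini-Hochberg adjustment. Between old and middle-aged muscle 30 were called, against 16 among features detected on all arrays (fewer features tested), 468 with array weights (205 higher and 263 lower, against 25 and 5), 101 without that pair of arrays, and 751 or 2 by the t-test. Between middle-aged and young muscle 1 was called, against 2 with every probe kept, 77 with array weights, 2 without that pair and 915 by the t-test unadjusted. Leaving out 1 array gave 152 to 710, 15 to 306 and 1 to 8, each highest count but the last without old replicate 5. Old against young fell by over 1.5 times without each young array (193, 198, 201, 183 and 152) and without old replicates 1 (195) and 4 (170). Old against middle-aged moved so without middle-aged replicates 2 (19), 4 (15) and 5 (68) and old replicates 2 (54), 3 (58) and 4 (17), and middle-aged against young without young replicate 3 (2), middle-aged replicate 4 (4), old replicate 3 (8) and old replicate 5 (5). The cause was not tested.

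Of the genes on the pathway lists, 12 were called higher and 1 lower between old and young, against 19 and 2 with array weights. Between old and middle-aged 0 were called lower, against 1 with array weights and 1 without the same pair, and between middle-aged and young 0 higher, against 1 with array weights. Leaving out 1 array gave 8 to 16 higher and 1 to 3 lower in old against young, and 5 to 12 higher and 0 to 1 lower in old against middle-aged. With the replicate number as a block, 219, 21 and 2 features were called and no call on a member changed, but those on Xirp1, Pdlim3 and Bbc3 were lost (adjusted p of 0.0551, 0.0725 and 0.0541 by limma). The numbers did not pair the mice: 3 of 15 pairs of same-numbered arrays correlated above 0.1, and 5 of 15 arrays correlated best with their own number. All 7 probes were above background throughout, but without background correction the Ankrd1 differences were 2.48 for old against young, 1.39 for old against middle-aged and 1.09 for middle-aged against young.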
